A study of Mus musculus with 8 samples.

Results

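The genes described here encode the proteins of the cytosolic ribosome. They were chosen by name: a symbol of Rpl or Rps followed by a number and at most 1 of the letters a, l, x or y, the stalk proteins Rplp0 to Rplp2, and Rpsa, each with protein_coding among its transcript types. Of 15864 genes in the table, 78 met this rule, 46 of the large and 32 of the small subunit. The data are RNA-seq read counts from mouse liver, with 3 control and 5 knockout samples. Controls are labelled WT. Knockouts are labelled Alb-cre Mfrn1-/- Mfrn2 -/-: the albumin promoter drives Cre recombinase in hepatocytes, and both mitoferrins, the mitochondrial iron carriers encoded by Slc25a37 and Slc25a28, are lost there. All mice ate standard chow and the groups were matched for age, with no age stated. The labels give Alb-cre for the knockouts alone, so the transgene and the loss of the carriers cannot be told apart. They do not say that each sample is a separate animal, so p-values measure only the spread between these samples, which may be technical.

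Each ribosomal subunit is built on ribosomal RNA, and its proteins are made in matching amounts. Their mRNAs are among the most heavily translated in a cell, and many begin with a run of pyrimidines, the 5′ terminal oligopyrimidine (TOP) tract, through which mTOR and the binding protein LARP1 control their translation. Ribosomal protein mRNAs have also been copied back into the genome many times as processed pseudogenes, so that a short read from one of them can match several places.

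Library totals ran from 24.6 to 43.1 M counts, and every control library was deeper than every knockout library. After TMM scaling, 1 count stood for 0.0227 to 0.0404 CPM, the count scaled to library size. Slc25a28 had 16.6 to 18.1 CPM in controls and 0.592 to 0.888 CPM in knockouts (edgeR adjusted p = 1.92e-07), and Slc25a37 had 12.9 to 23.0 against 5.76 to 10.6 CPM (adjusted p = 0.104 by edgeR and 0.000337 by DESeq2). In bulk liver, fewer cells of a type and less RNA per cell cannot be told apart. The 7 hepatocyte markers in the table summed to 109019 to 116486 CPM in controls and 111218 to 122482 CPM in knockouts. The 4 neutrophil markers in the table summed to 3.57 to 11.9 CPM in controls and 0.882 to 3.39 CPM in knockouts, and their part in the results was not tested. S100a8 and S100a9 gave most of these counts, Ngp was under 1 CPM in every library, and Camp had 0 counts in control replicate 3 and knockout replicates 2 and 5. The sums of the other marker lists overlapped between the groups. Rgs5, a stellate cell and pericyte marker, lay at 77.1 to 100.1 CPM in controls and 59.6 to 66.2 CPM in knockouts (adjusted p = 0.0930 by edgeR and 0.000520 by DESeq2), and its part in the results was not tested. Rgs5 does not stand for its list: of the 6 stellate cell markers, 3 were positive and 3 negative, with a median log2 fold change of 0.02.

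The pairs below show how alike a ribosomal protein mRNA and a copy of it can be. Each gives up to 150 coding bases of a ribosomal protein mRNA and the matching bases of a copy elsewhere in the mouse genome, from GENCODE M21, with the bases that differ in capitals. Rps28 lies at chr17:33819027-33824562 on the minus strand and its copy Gm10263 at chr13:73317844-73318143 on the plus strand (mm10). Over the coding sequence, 206 of 207 bases were identical, and the stretch runs from coding base 14 to 163, counted from the A of the start codon.
Rps28: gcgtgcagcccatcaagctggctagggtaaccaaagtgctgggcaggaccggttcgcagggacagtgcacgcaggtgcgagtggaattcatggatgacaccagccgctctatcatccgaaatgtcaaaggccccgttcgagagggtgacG
Gm10263: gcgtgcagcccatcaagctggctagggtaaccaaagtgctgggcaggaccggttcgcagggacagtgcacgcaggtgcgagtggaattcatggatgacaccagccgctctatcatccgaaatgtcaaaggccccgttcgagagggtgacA
Rps18 lies at chr17:33951999-33956001 on the minus strand and its copy Gm10260 at chr13:97760130-97760588 on the minus strand, with 452 of 456 coding bases identical. Coding bases 282 to 431 are shown.
Rps18: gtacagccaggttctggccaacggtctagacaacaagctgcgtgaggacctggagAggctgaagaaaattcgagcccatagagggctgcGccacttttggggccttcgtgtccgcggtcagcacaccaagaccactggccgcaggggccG
Gm10260: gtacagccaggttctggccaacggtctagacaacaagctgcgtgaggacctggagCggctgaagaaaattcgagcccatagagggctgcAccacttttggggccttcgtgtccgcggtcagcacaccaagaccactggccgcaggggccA
Rplp0 lies at chr5:115559467-115563727 on the plus strand and its copy Gm8730 at chr8:102864779-102865853 on the minus strand, with 939 of 951 coding bases identical. Coding bases 298 to 447 are shown.
Rplp0: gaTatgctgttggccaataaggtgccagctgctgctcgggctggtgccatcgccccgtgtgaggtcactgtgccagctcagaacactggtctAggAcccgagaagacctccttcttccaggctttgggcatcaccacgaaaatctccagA
Gm8730: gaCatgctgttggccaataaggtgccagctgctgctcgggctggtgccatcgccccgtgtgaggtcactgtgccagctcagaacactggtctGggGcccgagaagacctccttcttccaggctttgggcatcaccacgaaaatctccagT
Rpl35a lies at chr16:33056453-33060189 on the plus strand and its copy Gm10247 at chr16:8922057-8922389 on the minus strand, with 326 of 330 coding bases identical. Coding bases 50 to 199 are shown.
Rpl35a: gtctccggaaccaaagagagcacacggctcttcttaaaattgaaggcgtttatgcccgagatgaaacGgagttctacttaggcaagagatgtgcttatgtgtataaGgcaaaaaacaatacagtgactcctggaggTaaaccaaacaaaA
Gm10247: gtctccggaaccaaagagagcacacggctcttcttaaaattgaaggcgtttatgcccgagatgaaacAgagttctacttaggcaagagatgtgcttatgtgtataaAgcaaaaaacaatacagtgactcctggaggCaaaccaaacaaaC
The stretches differ at 1, 3, 4 and 4 positions. These 4 copies were singled out after their values were seen.

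A TOP-like tract, taken as a C followed by at least 4 pyrimidines (C or T) and beginning within 5 bases of a RefSeq start on the gene's own strand, was searched in the RefSeq promoter table (GRCm38.p6). Of the 78 genes, 57 had an entry and 28 of those, 49.1%, held such a tract at a listed start, against 21.2% of all 27025 genes with an entry. A match describes letters, not a used start, and a missing match does not show that an mRNA lacks the tract. The windows below show 10 bases before and 20 bases from a listed start, with the tract in capitals, for Rps2 (chr17:24720053-24720082, plus strand) and for the start of Rpl35a that holds one (chr16:33056472-33056501, plus strand). Rplp0, Rps28 and Rpl41, whose groups also did not overlap, held no such tract at their listed starts, nor did the other starts listed for Rpl35a. Rplp1, also higher in every knockout, had no entry.
Rps2 start: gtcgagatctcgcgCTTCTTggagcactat
Rpl35a start: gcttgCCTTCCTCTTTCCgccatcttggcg

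As a group, the ribosomal protein mRNAs stood at nearly the same level in both genotypes. All 78 genes passed the filter on low counts. None passed the edgeR test in either direction, where 0.109% of the 14664 genes tested did (0.0477% higher and 0.0614% lower). By limma-voom 0 of the 78 passed, against 0.123% of all genes. By DESeq2 3 passed, Rps2, Rplp0 and Rpl35a, all higher in knockouts, against 1.62% of all genes. The authors' deposited table calls the same 3 genes, against 1.48% of its 15864 genes. The submitters' processing notes also name DESeq2, so this repeats a method on the same libraries and is not a separate test. At an unadjusted p under 0.05 edgeR gave 7 genes higher and 1 lower, where 5.67% and 4.68% of all genes lay (10.4% in either direction). A p that misses the threshold does not show that the groups were equal.

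The median log2 fold change of the 78 genes was 0.0098, with 41 positive and 37 negative, and that of all genes tested was -0.0037. The quartiles of the family lay at -0.11 and 0.09. In 41 genes the log2 fold change was within 0.1 of 0 and in 61 within 0.25, while 7 lay beyond 0.5. The large subunit had 20 positive and 26 negative values (median -0.0044) and the small subunit 21 positive and 11 negative (median 0.03). Every knockout lay above every control in 6 genes (Rpl35a, Rpl41, Rplp0, Rplp1, Rps2 and Rps28), where 3.2% of all genes did so, and every knockout lay below every control in Rpl23a and Rpl9, where 3.74% of all genes did so.

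**Figure D1:**
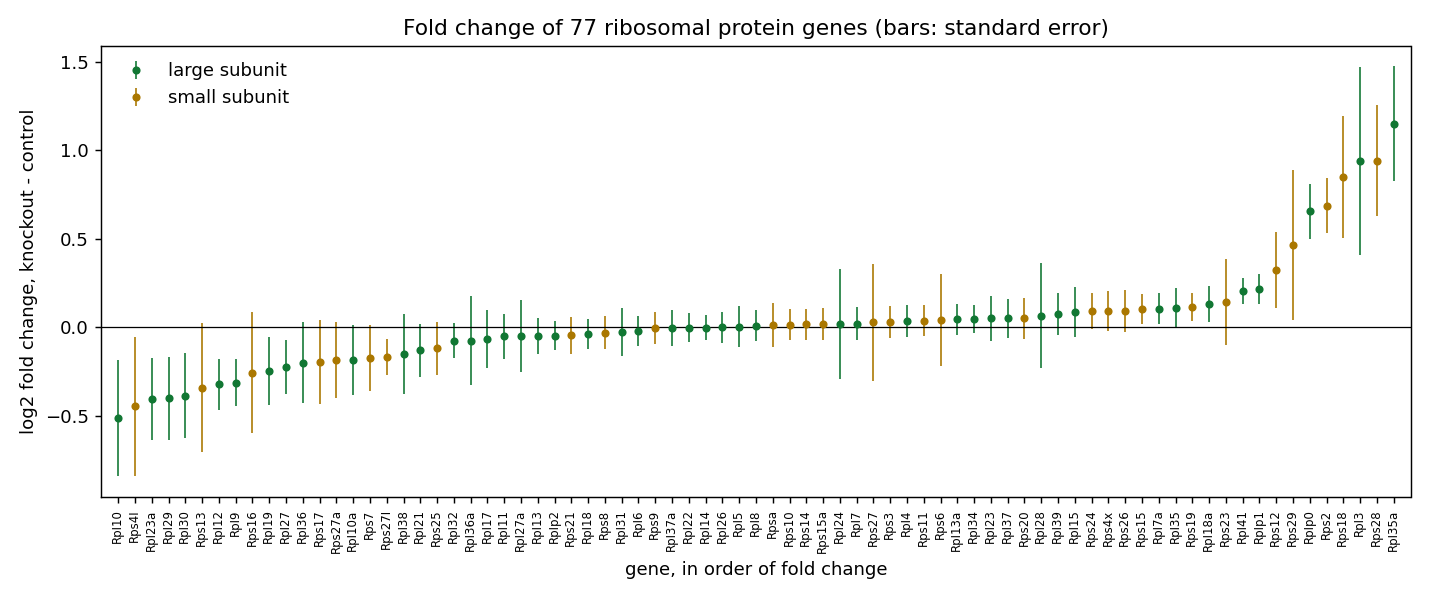
Log2 fold change, knockout minus control, of 77 of the 78 genes (points) with its standard error (bars), in order of size. Most points lie within 0.25 of 0, and the genes at the right end, up to Rpl35a at 1.15, have wide bars.

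Summed over the 78 genes, the level was 3404, 3101 and 3144 CPM in control replicates 1 to 3 and 3354, 3348, 3708, 3426 and 3194 CPM in knockout replicates 1 to 5. Knockout replicate 3 was the highest library, and the groups overlapped. The means were 3216 ± 164 CPM (SD, n = 3) and 3406 ± 189 CPM (SD, n = 5), a ratio of 1.06. The large subunit averaged 1869 against 1980 CPM and the small subunit 1347 against 1426 CPM. These genes held 0.322% of control counts, and the 5 with the most counts made up 38.8% of that sum. Knockout replicate 3 was the highest of all libraries in 28 genes.

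**Figure D2:**
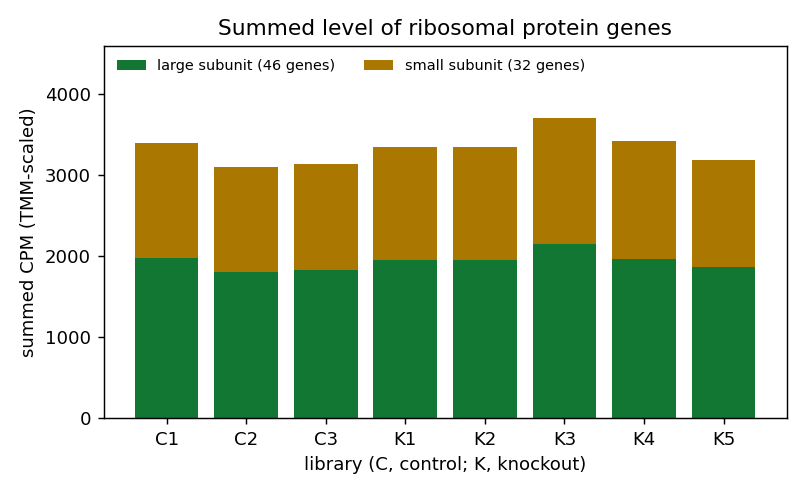
Summed CPM of the 46 large-subunit and 32 small-subunit genes in each library (C, control; K, knockout). Libraries lie between 3101 and 3708 CPM, and the groups overlap.

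Across all genes the rank correlation of the fold change with gene length was 0.219, and the 78 genes were short, with a median of 1439 bases against 3434.5 bases for all genes. Within libraries, the rank correlation of each gene's centred level with length was -0.261, -0.0764 and -0.0414 in controls and 0.169, 0.217, -0.104, -0.120 and 0.213 in knockouts. Knockout replicates 1, 2 and 5 were positive, and knockout replicates 3 and 4 lay among the controls. With a length offset in the fit, the median log2 fold change was 0.053 for the 78 genes and -0.0063 for all genes.

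The stalk is the flexible arm of the large subunit that recruits the translation factors with GTPase activity. Its base protein Rplp0 had 102, 63.5 and 92.4 CPM in control replicates 1 to 3 and 138, 136, 149.5, 114 and 138 CPM in knockout replicates 1 to 5. All knockouts lay above all controls, and control replicate 2 was the lowest library. The log2 fold change was 0.65 ± 0.154 (SE), with an edgeR adjusted p of 0.182 and a DESeq2 adjusted p of 0.00855. In the authors' deposited table its log2 ratio was 0.56 with an adjusted p of 0.00949.

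Rplp1, which pairs with Rplp2 on the stalk, had 168, 153 and 162 CPM in controls and 182, 192, 204, 179 and 178 CPM in knockouts. The groups did not overlap, at 0.22 ± 0.0852 on the log2 scale (edgeR adjusted p = 0.436). Its partner Rplp2 had 31.2, 29.3 and 28.5 CPM in controls and 30.2, 26.1, 30.6, 30.03 and 26.4 CPM in knockouts. Here the groups overlapped, with a log2 fold change of -0.05 ± 0.0823. On the CPM scale the 3 stalk genes therefore did not share a pattern over the libraries, and the differences between their fold changes were not tested.

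Among the other large-subunit genes, Rpl35a showed the greatest fold change. RPL35A is a gene of the human congenital anaemia Diamond-Blackfan anaemia. It had 22.6, 6.65 and 22.5 CPM in controls and 37.9, 38.1, 40.3, 37.4 and 37.4 CPM in knockouts. The knockouts were close to each other and above every control, and control replicate 2 lay far below the other controls. The log2 fold change was 1.15 ± 0.323 (edgeR adjusted p = 0.263, DESeq2 adjusted p = 0.0142). Without control replicate 2 it was 0.76 ± 0.0811 and passed the edgeR test (adjusted p = 0.00808), the only one of the 78 genes to pass when any 1 library was left out. In the authors' deposited table its log2 ratio was 0.70 with an adjusted p of 0.0189.

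Rpl41, the smallest ribosomal protein, had 27.1, 25.9 and 27.7 CPM in controls and 29.4, 31.7, 29.2, 33.6 and 31.2 CPM in knockouts. The groups were close but did not overlap (log2 fold change 0.20 ± 0.0739, edgeR adjusted p = 0.396). Rpl3, a protein of the peptidyl transferase centre, had 1.52, 16.1 and 7.40 CPM in controls and 14.7, 19.0, 14.9, 17.7 and 13.6 CPM in knockouts. Control replicate 1 held the least of any library and control replicate 2 lay among the knockouts, so that the log2 fold change of 0.94 had a standard error of 0.532 (edgeR adjusted p = 0.566). It was 0.45 without control replicate 1 and 1.85 without control replicate 2.

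Rpl9 and Rpl23a were the genes whose knockouts all lay below the controls. Rpl9 had 3.90, 4.63 and 4.74 CPM in controls and 3.83, 3.49, 3.00, 3.75 and 3.69 CPM in knockouts, with no overlap (log2 fold change -0.31 ± 0.132, edgeR adjusted p = 0.460). Rpl23a, which sits at the exit of the peptide tunnel, had 0.658, 0.578 and 0.738 CPM against 0.548, 0.399, 0.434, 0.525 and 0.567 CPM (log2 fold change -0.41 ± 0.231, edgeR adjusted p = 0.570). No knockout reached the lowest control.

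Rpl10, an X-linked protein that joins the large subunit late in its assembly, had 12.0, 10.2 and 30.04 CPM in controls and 13.6, 9.80, 11.3, 16.3 and 10.2 CPM in knockouts. Control replicate 3 alone carried its log2 fold change of -0.51, which was 0.14 without that library and -0.78 without control replicate 2. Rpl30 had 23.0, 22.1 and 20.9 CPM in controls, and in knockouts 25.1 and 21.6 CPM in replicates 3 and 4 but 12.1, 13.5 and 12.2 CPM in replicates 1, 2 and 5. Those 3 knockouts lay below every control, and the other 2 did not (log2 fold change -0.39 ± 0.242, edgeR adjusted p = 0.610).

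Rpl5 and Rpl11, which form a complex with the 5S RNA and can bind Mdm2, were level. Rpl5 averaged 12.9 ± 1.17 CPM in controls and 12.9 ± 1.34 CPM in knockouts, and Rpl11 averaged 7.43 ± 0.431 and 7.17 ± 1.01 CPM (SD, n = 3 and 5). The most abundant large-subunit genes by CPM were also close, with Rpl4 at 327 ± 19.1 and 334 ± 19.6 CPM and Rpl8 at 246 ± 15 and 248 ± 14.5 CPM.

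In the small subunit, Rps2 had the smallest p of the family. This protein lies near the mRNA entry channel. It had 48.5, 37.4 and 64.5 CPM in controls and 77.4, 77.7, 91.4, 78.6 and 78.5 CPM in knockouts. All knockouts lay above all controls, and knockout replicate 3 was the highest library. The log2 fold change was 0.69 ± 0.157, with an edgeR adjusted p of 0.175 and a DESeq2 adjusted p of 0.00576. In the authors' deposited table its log2 ratio was 0.58 with an adjusted p of 0.00662.

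Rps28, which lies near the mRNA exit channel, had 6.74, 2.41 and 6.95 CPM in controls and 11.1, 11.9, 7.82, 8.56 and 12.1 CPM in knockouts, and Rps18, a protein of the subunit's head, had 13.2, 4.63 and 12.0 CPM against 22.0, 21.7, 12.3, 12.3 and 21.0 CPM. In both genes control replicate 2 was lowest, knockout replicates 1, 2 and 5 were highest, and knockout replicates 3 and 4 lay near the remaining controls. The log2 fold changes were 0.94 ± 0.315 and 0.85 ± 0.343 (edgeR adjusted p = 0.365 and 0.446). Without control replicate 2 they were 0.59 and 0.51.

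Sample numbers in the labels begin with 82 for the controls and knockout replicates 4 and 5, and with 85 for knockout replicates 1 to 3, and what this marks is not stated. Among the samples numbered 82, the log2 fold changes were 0.65 for Rps2, 0.55 for Rplp0, 1.12 for Rpl35a, 0.95 for Rps28 and 0.75 for Rps18. None passed the edgeR test there (adjusted p = 0.463 to 0.658), with 3 controls and 2 knockouts.

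Other named small-subunit genes were steadier. Rps19, another Diamond-Blackfan anaemia gene in humans, averaged 39.6 ± 1.85 and 42.7 ± 3.01 CPM. Rpsa, which also serves as a laminin receptor, averaged 6.76 ± 0.655 and 6.82 ± 0.808 CPM, and Rps6, the substrate of S6 kinase, 1.06 ± 0.233 and 1.09 ± 0.281 CPM.

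Rps27a, made as a fusion with ubiquitin, averaged 3.07 ± 0.114 and 2.70 ± 0.674 CPM. Rps4x, the X-linked form of Rps4, averaged 46.1 ± 4.28 and 49.1 ± 5.76 CPM. Rps4l had 17.6, 6.12 and 10.5 CPM in controls and 6.54, 3.69, 9.16, 12.8 and 9.80 CPM in knockouts, a spread within each group wider than the difference between them. GENCODE M21 annotates Rps4l as a transcribed processed pseudogene, against protein_coding in the deposited table.

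Rps27l, a p53 target and a paralog of Rps27, had 85.9, 75.2 and 83.3 CPM in controls and 66.8, 66.8, 83.6, 77.5 and 67.5 CPM in knockouts. Knockout replicates 1, 2 and 5 were below every control and the other 2 were not (log2 fold change -0.17 ± 0.102, edgeR adjusted p = 0.590). Its paralog Rps27 averaged 0.391 ± 0.145 and 0.392 ± 0.0986 CPM. Per length, the mean control FPKM, which the authors scaled to gene length and library size, was 99.8 for Rps27l and 1.53 for Rps27.

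**Figure D3:**
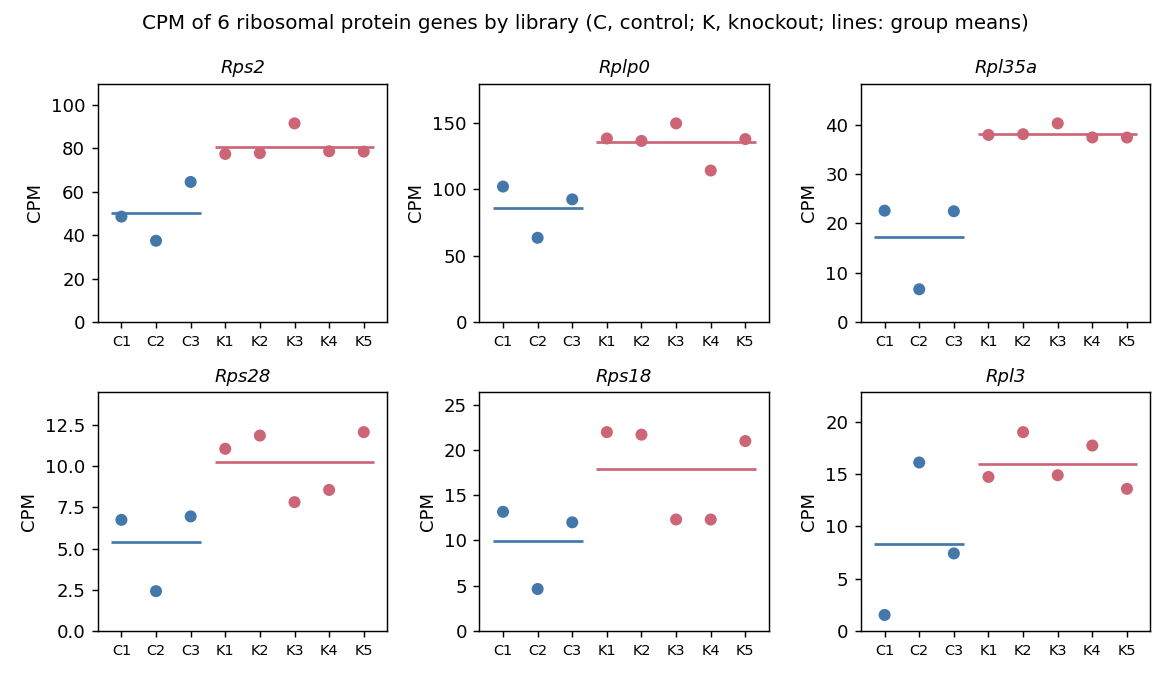
CPM of Rps2, Rplp0, Rpl35a, Rps28, Rps18 and Rpl3 in each library (C, control; K, knockout; lines, group means). Control replicate 2 is the lowest library in all but Rpl3, and the knockouts of Rpl35a lie between 37.4 and 40.3 CPM.

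Although the proteins are needed in matching amounts, the measured mRNA levels of the family covered an 843-fold range. Mean control FPKM ran from 0.386 for Rps29 to 325 for Rplp1, with a median of 8.45. The gene length behind FPKM is not always that of the mRNA. It was 4042 bases for Rpl18 and 935 for Rpl14, whose GENCODE M21 transcripts used here have 679 and 1009 bases. The part of these lengths in the range was not tested. After Rplp1, the highest were Rpl8 at 285 FPKM, Rpl4 at 229 and Rpl32 at 133. After Rps29, the lowest were Rpl28 at 0.411 FPKM, Rps16 at 0.578, Rps13 at 0.623 and Rpl24 at 0.640. In CPM, 23 genes were under 5, 36 between 5 and 50, and 19 at or above 50. The order hardly differed between genotypes, with a rank correlation of 0.990 between the control and knockout FPKM of 77 genes.

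This order went with how much of each mRNA is repeated in transcripts of other annotated genes. Each gene's principal GENCODE M21 transcript was cut into windows of 50 bases, and the share of windows also present in another annotated gene was counted. Rpl8 shared 7.86% of its windows and Rps27 98.6%. The rank correlation of control FPKM with the shared percentage was -0.57 over 77 genes (-0.56 in knockouts), and with the number of annotated copies -0.48. The 11 genes sharing under 25% had a median of 65.3 FPKM, the next 26 genes 17.6, the next 21 genes 5.22, and the 19 genes sharing 75% or more 2.63. None of the first 11 genes was under 5 CPM, and 11 of the last 19 were. The median standard error of the log2 fold change was 0.0884 in the first of these groups and 0.229 in the last. These points share the same libraries and are not independent, and the authors' treatment of reads with several matches is not given in the sources used here.

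**Figure D4:**
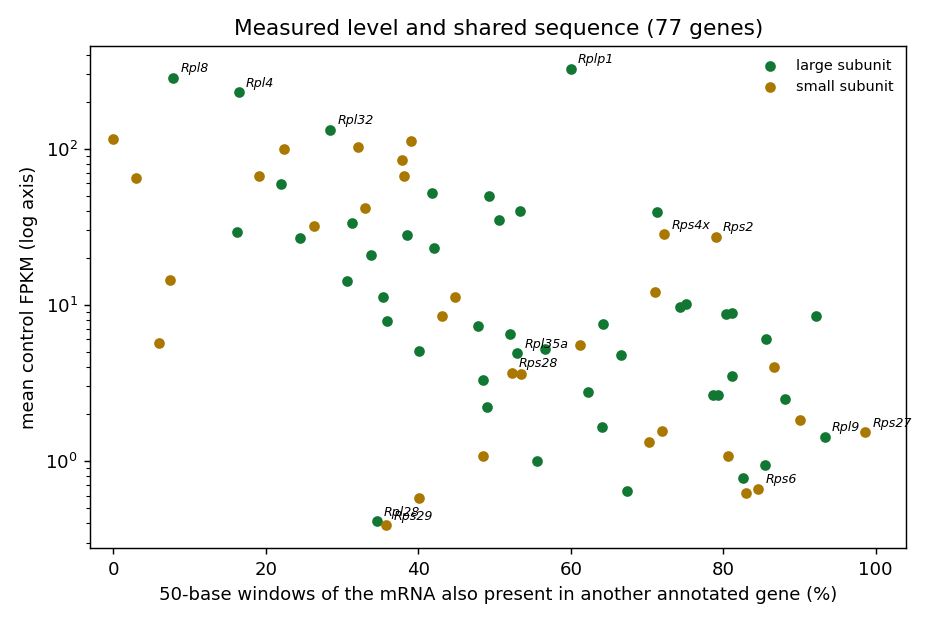
Mean control FPKM (log axis) of 77 genes against the percentage of 50-base windows of the mRNA found in another annotated gene, by subunit. Levels are lower to the right, with Rplp1 (325 FPKM at 60.0% shared) as an exception, and Rpl28 and Rps29 low at under 40%.

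The sums were also taken by shared sequence. The 37 genes sharing under 50% of their windows summed to 2481 ± 128 CPM in controls and 2580 ± 151 CPM in knockouts, a ratio of 1.04. The 40 genes sharing 50% or more summed to 758, 677 and 737 CPM in controls and 806, 816, 878, 815 and 772 CPM in knockouts, a ratio of 1.13 with no overlap. In CPM the means of the 2 sets differed between genotypes by 99.4 and 93.2, and the difference between the sets was not tested. Rps2, Rpl35a, Rps28, Rps18, Rpl3 and Rplp1 belong to the second set. Their differences in mean CPM were together no smaller than that of the whole set, so the ratio of 1.13 does not describe its other genes. Rplp0, whose means differed by 49.2 CPM, belongs to the first set.

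Of 623 annotated copies of these genes, 71 had a row in the table, of which 68 were annotated as pseudogenes, and they belonged to 47 of the 78 genes. Of the 46 copies tested 0 passed the edgeR test, 26 were lower in knockouts, 3 had an unadjusted p under 0.05, all lower, and the median log2 fold change was -0.05. Summed over the 71 copies, the level was 135, 200.2 and 127 CPM in controls and 74.7, 86.7, 149, 129 and 80.6 CPM in knockouts, with knockout replicates 1, 2 and 5 below every control. In 57 copies no library reached 100 counts. In 4 copies with at least 100 counts in a library, Gm10263, Gm10260, Gm8730 and Gm6472, the libraries differed more than 10-fold. These were singled out after their values were seen. Most of the spread of the sum between libraries came from them, so the sum does not describe the copies in general.

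The Rps28 copy Gm10263 had 22.1, 40.4 and 17.4 CPM in controls and, in knockouts, 22.2 and 22.6 CPM in replicates 3 and 4, 0.0332 and 0.0945 CPM in replicates 2 and 5, and 0 counts in replicate 1, which allows up to 0.103 CPM. The Rps18 copy Gm10260, which GENCODE M21 annotates as protein_coding, had 22.2, 46.5 and 17.2 CPM in controls. It had 0.103, 0.233, 23.0, 20.1 and 0.252 CPM in knockouts. The 2 copies lie far apart on chromosome 13 and had the same libraries high and the same libraries near 0. Their parent genes ran the other way in each case: highest in knockout replicates 1, 2 and 5 and lowest in control replicate 2, where both copies were highest.

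The Rplp0 copy Gm8730 had 7.97, 14.5 and 7.18 CPM in controls and 0.205, 0.166, 0.158, 8.03 and 0.284 CPM in knockouts. Knockout replicate 4 alone among knockouts held as much as the controls, and it was the lowest knockout for Rplp0. The edgeR adjusted p of Gm8730 was 0.460 with all libraries and 0.000338 without knockout replicate 4. With the replicate numbers as a block it was 0.0149. In that fit knockout replicates 4 and 5 had no control of the same number, so they did not inform the genotype comparison. The value of 0.0149 therefore also leaves out knockout replicate 4 and is not a separate test of all libraries. The replicate numbers also did not pair the samples. The Rpl35a copy Gm10247 held 13, 25 and 3 counts in controls and 1 count over all 5 knockouts. It did not pass the edgeR filter, and it was the only 1 of 71 copies called by DESeq2 (adjusted p = 0.0105). The Rps7 copy Gm6472, on chromosome X, had 1.95, 21.7 and 13.3 CPM in controls and 2.57, 12.6, 26.9, 2.42 and 12.2 CPM in knockouts, so that both genotypes held libraries near 2 CPM.

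Adding the counts of each copy to its gene, an alternative chosen after seeing the data, changed 2 of the largest fold changes in sign. Rps28 with its copies had 29.0, 43.1 and 24.5 CPM in controls and 11.4, 12.1, 30.5, 31.4 and 12.3 CPM in knockouts, which gave -0.73 in place of 0.94 on the log2 scale (edgeR adjusted p = 0.534). For Rps18 it was -0.53 (adjusted p = 0.454) in place of 0.85. Rps2, Rplp0 and Rpl35a stayed higher, at 0.67, 0.46 and 1.11 (adjusted p = 0.175, 0.187 and 0.244). None of the 78 genes passed with copies added, against 0.109% of all genes. The fold changes of Rps28 and Rps18 are therefore uncertain in size and sign.

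**Figure D5:**
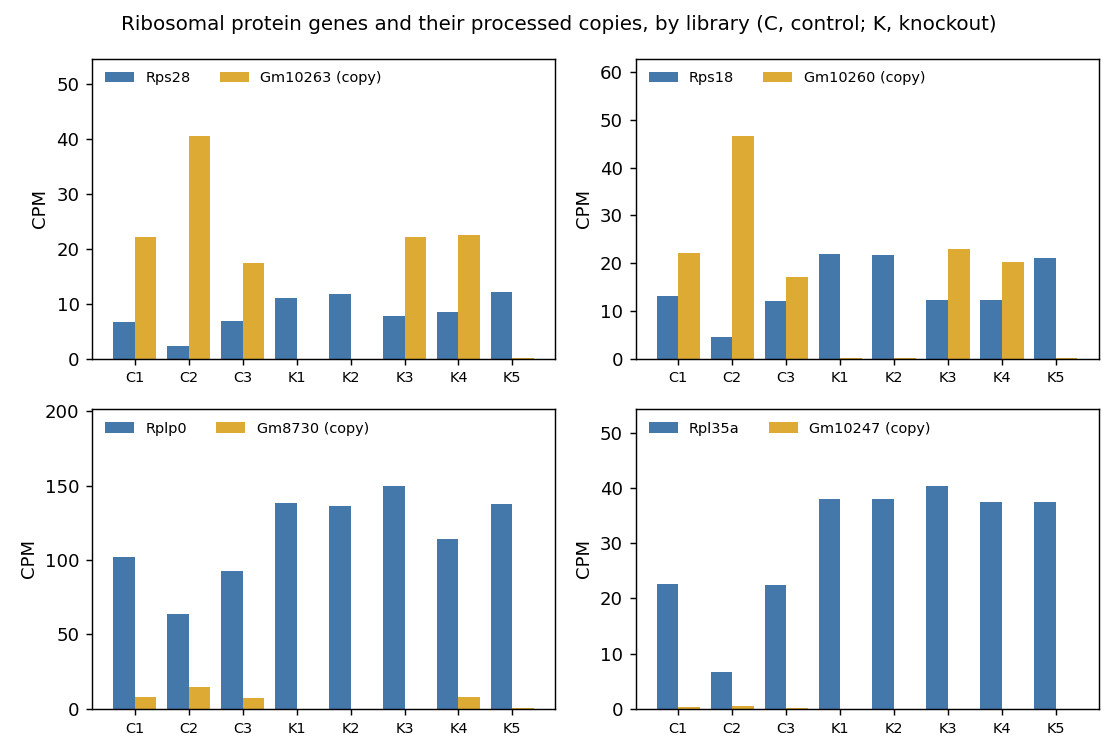
CPM of Rps28, Rps18, Rplp0 and Rpl35a (blue) and of a copy of each (yellow) in each library (C, control; K, knockout). Where the copies of Rps28 and Rps18 are near 0, in knockout replicates 1, 2 and 5, the genes are highest.

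Reads of other kinds could also fall on these genes. A small nucleolar RNA row lay within 24 of the 78 genes, and 12 were overlapped by a row on the other strand. The kit is stranded per the labels, but whether counting used strand is not given in the sources used here, so these genes' values are uncertain to that extent.

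The machinery that makes ribosomes was tested by lists. None of the 15 genes of rRNA transcription, 10 snoRNP core proteins or 36 assembly factors passed the edgeR test, with median log2 fold changes of -0.04, -0.03 and -0.09. With the length offset these were 0.017, 0.019 and -0.071, so the first 2 changed sign. Among assembly factors 26 of 36 were negative, against 50.8% of all genes tested. Sbds, which helps release Eif6 from the large subunit, had 37.3, 41.7 and 38.6 CPM in controls and 31.0, 31.5, 34.3, 32.7 and 33.5 CPM in knockouts. All its knockouts lay below all controls (log2 fold change -0.27 ± 0.0711, edgeR adjusted p = 0.244).

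Of 20 other mRNAs with a TOP tract, 0 passed the edgeR test, 15 were positive, and the median log2 fold change was 0.08. Of all 14664 genes tested, 7222 were positive. Pabpc1, the cytoplasmic poly(A)-binding protein, had 33.6, 31.2 and 42.8 CPM in controls and 68.0, 63.6, 44.1, 52.2 and 57.6 CPM in knockouts. All knockouts lay above all controls, at a log2 difference of 0.67 ± 0.155 (edgeR adjusted p = 0.175, DESeq2 adjusted p = 0.00708). The histone chaperone Nap1l1 was also higher in every knockout (log2 fold change 0.28 ± 0.0911, edgeR adjusted p = 0.344).

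Of 20 genes of mTOR and translational control, 0 passed the edgeR test and 13 were positive, against 7222 of all 14664 genes tested. The median was 0.10, or 0.048 with the length offset. Larp1, the TOP mRNA-binding protein, had 81.2, 94.6 and 80.5 CPM in controls and 102, 106, 108, 108 and 134 CPM in knockouts. Every knockout lay above every control, at a log2 difference of 0.39 ± 0.111 (edgeR adjusted p = 0.275, DESeq2 adjusted p = 0.0593). Mlst8, a subunit of both mTOR complexes, had 10.5, 10.1 and 9.53 CPM against 8.15, 7.31, 7.50, 9.53 and 7.75 CPM, and Eif4ebp2, a repressor of cap-dependent translation, lay 0.59 ± 0.241 higher on the log2 scale (edgeR adjusted p = 0.453), or 0.91 without control replicate 3.

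The 7 ribosomal proteins outside the name rule had a median log2 fold change of -0.03 and 0 calls. Gnb2l1, the small-subunit scaffold also called Rack1, averaged 333 ± 20.3 and 356 ± 19.5 CPM. Of 16 chaperones and turnover factors of ribosomal proteins 0 passed, with a median of -0.07.

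Mitochondrial ribosomal proteins, which translate the mRNAs of the mitochondrial genome, were tested as another list. Of 78 tested 0 passed the edgeR test, 51 were negative, and the median log2 fold change was -0.05. Mrpl27 had 22.9, 21.9 and 21.7 CPM in controls and 18.3, 16.0, 18.5, 16.2 and 17.6 CPM in knockouts, all below the controls (log2 fold change -0.35 ± 0.0815, edgeR adjusted p = 0.175, DESeq2 adjusted p = 0.0496). Mrps10 went the other way, with every knockout above every control (log2 fold change 0.28 ± 0.0971, edgeR adjusted p = 0.367). In 3.85% of this set every knockout lay below every control and in 1.28% above, against 3.74% and 3.2% of all genes. Of all genes tested, 50.8% were negative. With the length offset the median of this set was -0.0031. The difference between the cytosolic and mitochondrial sets was not tested.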

How the data were processed

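Liver RNA of 3 control and 5 knockout samples was sequenced with a TruSeq stranded kit for total RNA and removal of ribosomal RNA, per the labels' protocols. Reads were processed with Novoalign 2.8, mm10 and DESeq2, per the submitters' processing notes. How reads were counted, by strand or with several matches, is not given in the sources. The authors deposited whole-number read counts, which were tested here. Regularised log2 values, per the file headers, were not used. FPKM values and a log2 ratio, both made by the authors, served to compare levels between genes and to set beside the tests. The authors' deposited score for the adjusted p lies on a -10 log10 scale and was converted to an adjusted p.

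Counts were filtered with filterByExpr (min.count 10, min.total.count 15; 14664 of 15864 genes kept) and scaled by TMM in edgeR 4.0.16 under R 4.3.3. The two-sided quasi-likelihood test compared the genotypes, with Benjamini-Hochberg adjustment over all genes and a threshold of 0.05. A standard error is the fold change over the root of its F statistic. DESeq2 1.42.0 and limma-voom (limma 3.58.1) were alternatives, as were other scalings, no filter, a length offset, thinning, a replicate block and leaving out libraries. The fits were tested on simulated data. Totals of 24.6 to 43.1 M counts set the precision, and a count of 0 allows 3 counts (counting error only). 1 emptied line was left out. Replicates of a group differed by a chi-square of 28.1 to 77.3 per gene, so all 8 were kept.

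The genes and lists were chosen with earlier results of these data known. Named were members that passed, up to 10 per direction by p, the 5 highest and 5 lowest by control FPKM, the stalk proteins, Rpsa, paralog pairs, 8 further members of known role of which Rpl40 has no row here, the deleted genes, and up to 2 per direction from each other list. 1 gene that this rule names is not reported here. The marker lists covered hepatocytes, lymphocytes, Kupffer cells, neutrophils, sinusoidal endothelium, stellate cells, cholangiocytes and erythroid cells. Positions are mm10, counted from 1. Sequences come from GENCODE M21 and RefSeq (GRCm38.p6), read with Biopython 1.88. Plots used matplotlib 3.10.9.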

Additional observations from a re-analysis of the deposited data

Results flagged for a closer look

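In 4 of 38 values examined over the 5 knockouts, on the log2 CPM scale, 1 library stood apart: its gap to the nearest other library, divided by the range of the group, exceeded Dixon's critical value of 0.71. Chance alone gives such a gap in about 5% of groups. For Rps2 the ratio was 0.905, with knockout replicate 3 high at 91.4 CPM. For Rpl35a it was 0.759, with knockout replicate 3 high at 40.3 CPM. For Rpl5 it was 0.763, with knockout replicate 5 low at 10.6 CPM. For Rps27 it was 0.838, with knockout replicate 5 high at 0.567 CPM.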

How the results depend on the processing

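Under 21 alternatives the median log2 fold change of the 78 genes stayed between -0.021 and 0.053. Their summed ratio, run under 13 of these, stayed between 1.04 and 1.10. Over all genes, 16 passed with edgeR and 257 with DESeq2, and 8 to 30 when 1 library was left out. Of the 78 genes, 3 passed with DESeq2 and 0 to 1 when 1 library was left out, the 1 being Rpl35a without control replicate 2. Over 1125 fold changes of 54 named genes under the alternatives, 54 changed sign, of which 47 moved by no more than 1 standard error (Rpl24 and Rpl28 with copies added are among these, at -0.17 and -0.20). Signs reversed by more for Rpl10 without control replicate 3 (range over left-out libraries -0.78 to 0.14) and Rps4l without control replicate 1 (-0.75 to 0.017). With samples numbered 82 alone they reversed for Rpl29 (0.024) and Rps4x (-0.030), and with copies added for Rps13 (0.10), Rps18 (-0.53) and Rps28 (-0.73). The cause was not tested, except that the last 3 follow from the added counts. Replicate numbers 1 to 3 did not pair the samples: correlations of same-numbered deviations were 0.08, 0.02 and -0.06, and 1 of 6 samples correlated best with its own number. With the replicate block 12 genes passed over all and 0 of the 78, and their median was 0.020. The copy Gm8730 passed with the block (adjusted p = 0.0149). Knockout replicates 4 and 5 have no control of the same number, so the block fit compares the genotypes without them. Depth limits 13 of the 78 genes, which had under 30 counts in some library.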
